A study of Mesocricetus auratus with 6 samples.

Results

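The genes described here encode the subunits of the proteasome, its activators and the factors that assemble it. They were read in uterine tissue taken at the time of embryo attachment, day 5 of pregnancy, from the Syrian hamster (Mesocricetus auratus). Members were all array features, called probe sets, whose platform annotation gave 1 gene symbol of the families PSMA, PSMB, PSMC, PSMD, PSME, PSMF or PSMG, or POMP. This gave 63 of 22215 probe sets, for 40 of 11963 genes. The genes were split by particle into 6 of the alpha ring, 7 of the beta ring, 3 of the immunoproteasome, 8 of the base, 6 of the lid, 4 activators or regulators and 6 assembly factors. The animals were untreated, and the labels give neither their age nor a genetic modification. One group of 3 arrays held tissue from implantation sites, where an embryo was attaching, and the other group of 3 arrays held tissue from interimplantation sites, which had no embryo. The stated design has RNA from 3 animals and all arrays are labelled as biological replicates, but no label ties an array to an animal, so a p-value reflects no more than how these arrays vary.

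The proteasome is the protease that degrades proteins marked with ubiquitin. Its core particle is a barrel in which alpha rings form the gate and beta rings carry the proteolytic sites. A regulatory particle caps the barrel: its base holds the ATPases that unfold the substrate, and its lid removes ubiquitin. In cells exposed to interferon, the immunoproteasome subunits replace the catalytic subunits of the beta ring. Activators open the gate without needing ATP, and assembly factors leave the particle before it is complete. Decidualising stroma around an implanting embryo divides and remodels its matrix, and in many tissues proteasome genes are transcribed together.

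RNA of the hamster was hybridised to an Affymetrix array designed on human transcripts, so a dim probe set shows neither that a transcript is absent nor that it did not change. Values are log2 RMA signals, and a level can be compared between arrays but not between probe sets. Where a gene had several probe sets, the brightest on average across the 6 arrays stood for it. Differences are implantation minus interimplantation site, and a gene was called when limma's adjusted p over all genes was under 0.05. Array medians ran from 4.18 to 4.20, and arrays correlated at 0.989 to 0.995 within groups and 0.985 to 0.992 between them. Of 8 measured genes of uterine stroma, 7 were at or above the median probe set level of 4.19, among them COL3A1 (a fibrillar collagen, 9.25) and VIM (vimentin, 9.03), and LUM (lumican) was dim at 2.05. The 3′ minus 5′ signal of the actin controls, a measure of RNA quality, was −2.08 ± 0.22 at implantation and −1.70 ± 0.15 at interimplantation sites (SD over 3 arrays, log2 scale; two-sided exact permutation p = 0.1, the smallest that 3 against 3 arrays allow). It was lowest on implantation array 1, at −2.33, and below 0 on all 6 arrays. The control probe sets were designed on human transcripts, so the value also depends on how well each end binds hamster RNA. It is thus not a reading of RNA quality alone. The same measure of GAPDH went the same way, at −0.20 ± 0.16 and 0.13 ± 0.17, with overlapping groups (exact permutation p = 0.2), and the part of RNA quality in the differences below was not tested.

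Of the 40 proteasome genes, 6 rose at implantation sites and 0 fell: PSMA7 and PSMA3 of the alpha ring, PSMB7 and PSMB3 of the beta ring, PSMD1 of the base and the activator PSME3. The lid, the immunoproteasome and the assembly factors had 0 genes called in limma's test, with 2, 1 and 0 genes at an unadjusted p under 0.05. Among all genes tested, 1.24% were called in either direction and 0.777% were called higher, against 15% of the proteasome genes called higher. A further 12 members had an unadjusted p under 0.05, all of them higher at implantation sites, so 18 of 40 reached that level (45%), against 5.68% of all genes. Differences were above 0 in 29 members and below 0 in 11, against 47.6% of all genes above 0. The median difference over the 40 genes was 0.13 on the log2 scale, against −0.01 over all genes. The groups did not overlap, with every implantation array above every interimplantation array, in 17 members (42.5%), against 8.36% of all genes. In 0 members did they separate the other way, against 8.09% of all genes. In bulk tissue, fewer cells of a type and less RNA per cell cannot be told apart.

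**Figure D1:**
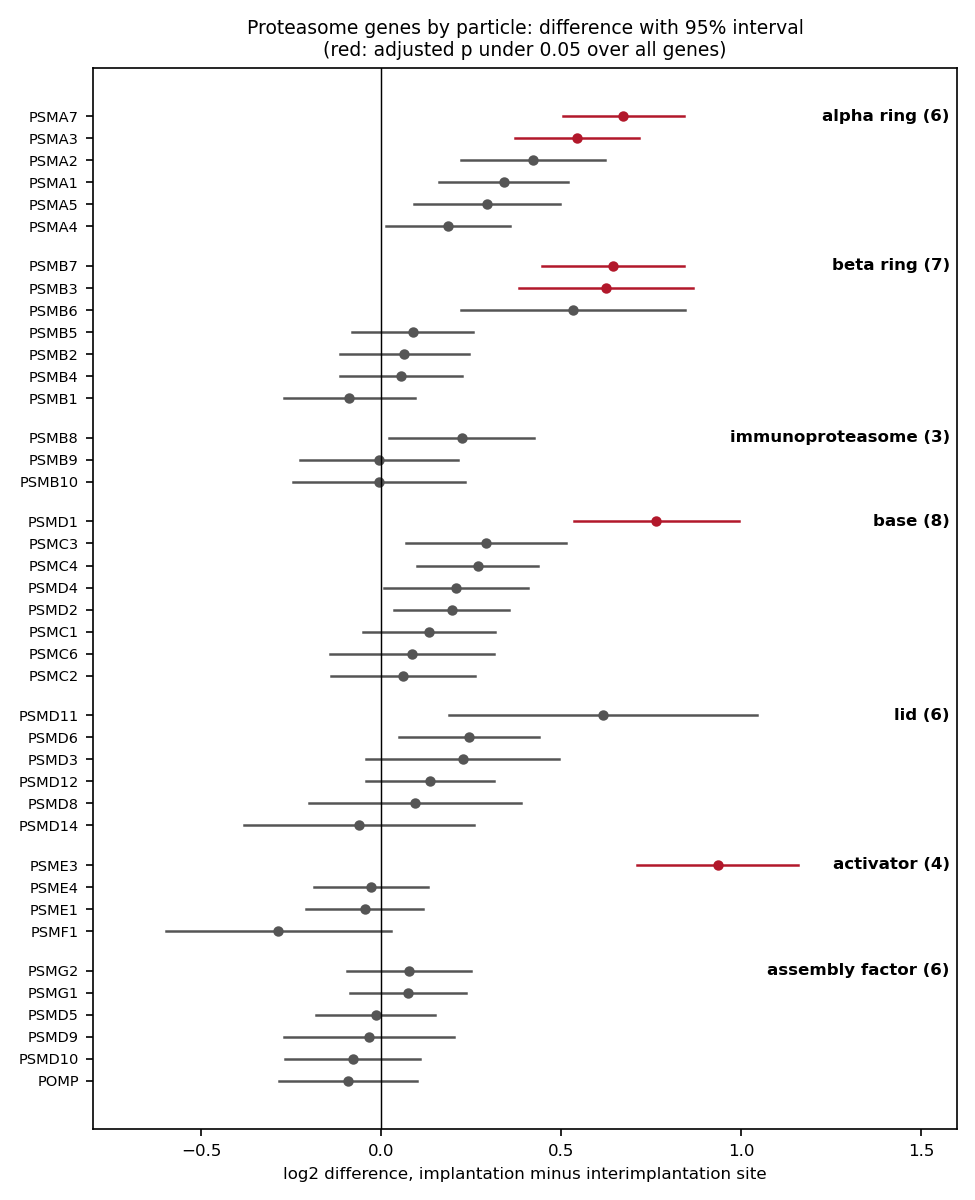
Log2 difference (implantation minus interimplantation site) of the 40 proteasome genes on the horizontal axis, grouped by particle, each with its 95% interval from limma; red points have an adjusted p under 0.05 over all genes. All 6 alpha ring genes and all 8 base genes lie to the right of 0, and PSME3, at 0.94, stands apart from the other activators.

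At their brightest probe sets, the 6 alpha ring genes were higher on every implantation array than on any interimplantation array. Their differences ran from 0.18 to 0.67 with a median of 0.38, and 2 of the 6 were called. The median was 0.33 with probe sets averaged and 0.24 over the 4 genes with a probe set free of shared probes. The dimmer probe sets of PSMA7 and PSMA2 overlapped between groups. PSMA7, which lies in the gate-forming ring, gave 7.12, 7.10 and 7.02 on the implantation arrays and 6.33, 6.48 and 6.42 on the interimplantation arrays. The groups were far apart compared with the spread within them, and PSMA7 rose 1.59-fold (log2 0.67 ± 0.08 SE, adjusted p = 0.00112). PSMA3, another subunit of the ring, read 5.90, 5.85 and 5.80 at implantation sites against 5.20, 5.37 and 5.35. It rose 1.46-fold (log2 0.54 ± 0.08 SE, adjusted p = 0.00486), and the spread within each group was small beside this gap.

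The other alpha ring genes did not pass, although none of them overlapped between groups at its brightest probe set. PSMA2 fell just outside the threshold, with values of 4.46, 4.46 and 4.51 against 4.05, 4.23 and 3.88 (log2 0.42 ± 0.09 SE, adjusted p = 0.0513). It passed without interimplantation array 2 (adjusted p = 0.0263). PSMA1 read 6.93, 6.93 and 6.82 against 6.47, 6.51 and 6.68 (log2 0.34, adjusted p = 0.0801). PSMA1 was alone among the genes with 3 or more probe sets in having every one of them separate the groups. All of these are marked for probes shared with other transcripts or for several transcripts, so they may not be independent readings. PSMA5 and PSMA4 differed by 0.29 and 0.18 (adjusted p = 0.218 and 0.409). PSMA4 was lowest of the ring and also dim, at 3.60, 3.74 and 3.77 against 3.59, 3.50 and 3.48, under the median probe set level of 4.19.

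In the beta ring 2 of 7 genes were called, 6 were above 0 and the median was 0.09. That median rests on the brightest probe set: it was 0.46 over the 6 genes with a probe set free of shared probes, 0.22 with probe sets averaged, and 0.049 without interimplantation array 3. PSMB7, which carries the trypsin-like site, gave 6.15, 5.99 and 5.94 at implantation sites and 5.37, 5.51 and 5.26 at interimplantation sites. It rose 1.56-fold (log2 0.64 ± 0.09 SE, adjusted p = 0.0041) and the groups were well separated. PSMB3, a subunit with no proteolytic site, read 7.34, 7.12 and 7.16 against 6.33, 6.76 and 6.65. It rose 1.54-fold (log2 0.62 ± 0.11 SE, adjusted p = 0.0162), but missed the threshold without implantation array 1 (adjusted p = 0.0799) or without interimplantation array 3 (0.0592).

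PSMB6, which carries the caspase-like site, read 6.45, 6.03 and 6.04 against 5.49, 5.96 and 5.47 (log2 0.53 ± 0.14 SE, adjusted p = 0.117). Its groups almost met at interimplantation array 2, and without that array the difference was 0.69 (adjusted p = 0.0307). PSMB5, which carries the chymotrypsin-like site, read 6.53, 6.47 and 6.44 against 6.47, 6.39 and 6.32, and these groups overlapped (log2 0.09, 95% interval −0.08 to 0.25, adjusted p = 0.755). The catalytic subunits thus gave differences of 0.64, 0.53 and 0.09, of which the first passed. The remaining members, all without a proteolytic site, were PSMB2 at 0.06, PSMB4 at 0.05 and PSMB1 at −0.09. PSMB1 was the lowest of the ring, at 4.96, 5.09 and 4.93 against 5.07, 4.98 and 5.19. In PSMB2, PSMB4 and PSMB1 the brightest probe set gave the smallest difference of the gene's probe sets.

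Of the 3 interferon-inducible catalytic subunits, 0 were called in limma's test and 1 had an unadjusted p under 0.05. Their median was −0.01 and ran from −0.03 to 0.09 when single arrays were left out. PSMB8, the counterpart of PSMB5, read 3.86, 3.64 and 3.51 against 3.43, 3.49 and 3.43 (log2 0.22 ± 0.09 SE, unadjusted p = 0.033, adjusted p = 0.385). Its groups did not overlap, but all its values were under the median probe set level. PSMB9, the counterpart of PSMB6, read 4.58, 4.49 and 4.77 against 4.57, 4.79 and 4.49, a difference of −0.01 with a 95% interval of −0.22 to 0.21. PSMB10, the counterpart of PSMB7, read 4.74, 4.28 and 4.41 against 4.41, 4.56 and 4.47, also −0.01, with an interval of −0.25 to 0.23. At these probe sets the latter intervals leave room for differences of about the size seen in PSMA4, but not for that of PSMB7. They cover the spread between arrays, not how fully 1 human probe set follows the hamster RNA. The dimmest probe set of PSME3 read −0.07 where its brightest read 0.94. A larger change in PSMB9 or PSMB10 RNA, each read at 1 probe set, is thus not excluded.

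Each catalytic subunit was set against its counterpart within an array, and PSME3 against PSME1, which made 4 pairs. The log2 value of PSMB7 minus that of PSMB10 was 1.41, 1.71 and 1.53 at implantation sites and 0.96, 0.95 and 0.79 at interimplantation sites. That difference was larger by 0.65 at implantation sites, with no overlap (exact permutation p = 0.1, the smallest possible; adjusted over the 4 pairs 0.133). PSMB6 minus PSMB9 was larger by 0.54, with no overlap and the same p. PSMB5 minus PSMB8 was 2.67, 2.82 and 2.93 against 3.05, 2.90 and 2.88, and changed by −0.14 with overlapping groups (exact permutation p = 0.3). The absolute value of such a difference cannot be read, since it depends on how well each human probe set binds hamster RNA. Its change depends on the probe sets too, as those of 1 gene can differ (PSMD1 at 0.76 and 0.18). A shift between catalytic subunits and their counterparts is thus not shown by these pairs.

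**Figure D2:**
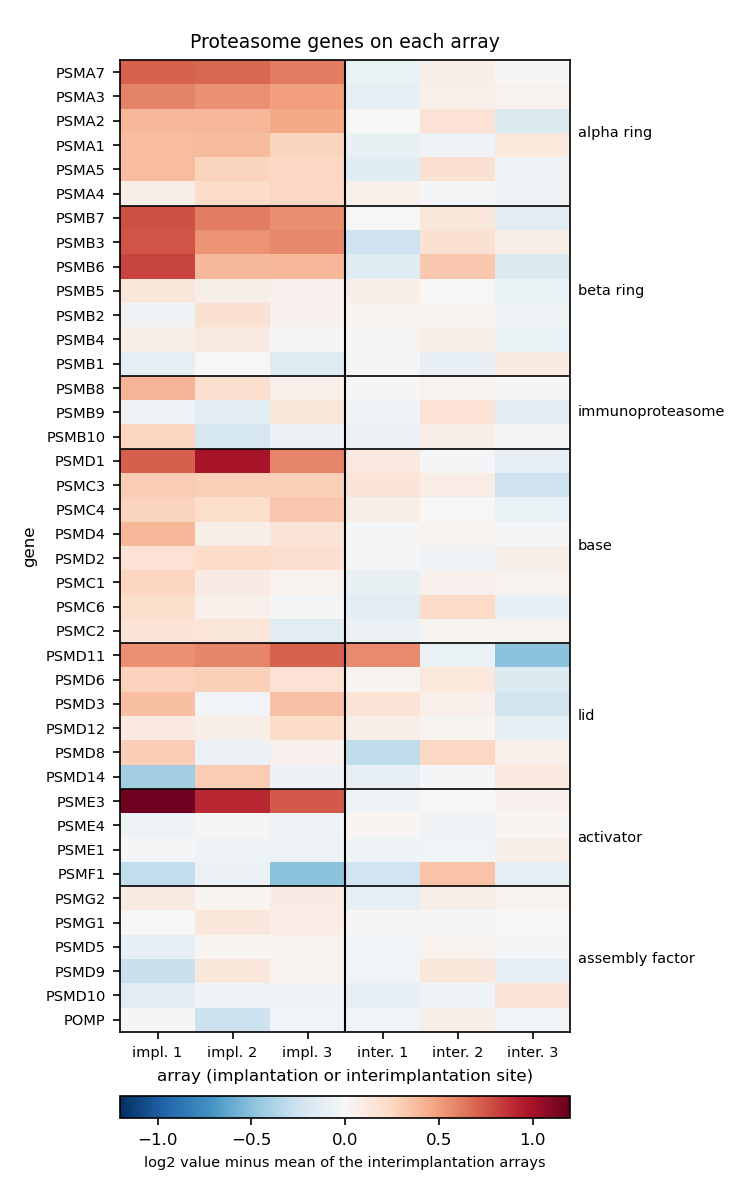
Log2 value of each of the 40 proteasome genes (rows, in blocks by particle) on each of the 6 arrays (columns), minus the gene's mean over the interimplantation arrays; red is higher and blue lower. The implantation columns are red throughout the alpha ring block and near white or mixed in the assembly factor block.

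All 8 genes of the base were above 0, with a median of 0.20 and a range from 0.06 to 0.76, but 1 of them was called. PSMD1, the large scaffold subunit, gave 7.02, 7.29 and 6.89 on the implantation arrays and 6.42, 6.28 and 6.20 on the interimplantation arrays. It rose 1.70-fold (log2 0.76 ± 0.10 SE, adjusted p = 0.00356), and its lowest implantation array lay above its highest interimplantation array. PSMD2, the other large scaffold subunit, read 7.12, 7.17 and 7.15 against 6.93, 6.91 and 7.02 (log2 0.20, adjusted p = 0.316). PSMD4, a receptor for ubiquitin chains, was at 0.21 (adjusted p = 0.428). At their brightest probe sets neither overlapped between groups. PSMD4 had further probe sets at 0.16, without overlap, and at −0.02 and 0.01, with overlap.

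The measured ATPases that unfold substrates, encoded by PSMC genes, had 0 of 5 called in limma's test and 2 of 5 with an unadjusted p under 0.05. PSMC5 was not among the members. PSMC4 read 6.03, 5.98 and 6.10 against 5.84, 5.77 and 5.69 (log2 0.27 ± 0.08 SE, adjusted p = 0.154). PSMC3 was at 0.29 (adjusted p = 0.269), where interimplantation array 3, at 3.42, lay well under the others at 3.76 to 3.97. PSMC1, PSMC6 and PSMC2 were at 0.13, 0.08 and 0.06 with overlapping groups. PSMC2, the lowest of the base, read 4.58, 4.56 and 4.29 against 4.34, 4.45 and 4.46. PSMC6 was among the dimmest members, with means of 2.53 and 2.44, below the lower quartile of 3.10.

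Lid genes gave a median of 0.18, with 5 of 6 above 0 and 0 called in limma's test, while 2 had an unadjusted p under 0.05. The median was 0.12 without interimplantation array 3 and up to 0.24 with another single array left out. PSMD11, which clamps the lid to the core particle, had the widest spread of the members. It read 6.56, 6.59 and 6.72 at implantation sites and 6.58, 5.92 and 5.52 at interimplantation sites (log2 0.62 ± 0.20 SE, adjusted p = 0.218). Interimplantation array 1 lay among the implantation arrays, and without it PSMD11 was called, at a difference of 0.90 (adjusted p = 0.0037). PSMD6 was the one lid gene without overlap, at 5.97, 5.98 and 5.86 against 5.73, 5.82 and 5.53 (log2 0.24, adjusted p = 0.294). PSMD3, PSMD12 and PSMD8, structural subunits, were at 0.23, 0.14 and 0.09. PSMD14, the deubiquitinating enzyme of the lid, was lowest, with 3.70, 4.43 and 4.05 against 4.02, 4.10 and 4.23 (log2 −0.06, 95% interval −0.38 to 0.26). Both its highest and its lowest array were implantation arrays.

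**Figure D3:**
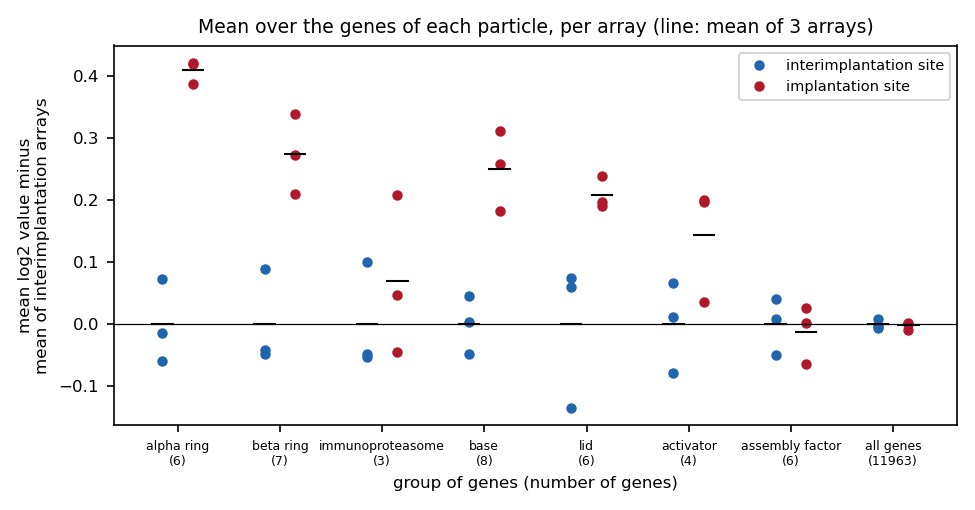
Mean over the genes of each particle of the log2 value minus the gene's interimplantation mean (vertical axis), 1 point per array, with a line at the mean of 3 arrays; the last column holds all 11963 genes. Alpha ring means were 0.39 to 0.42 on implantation arrays and −0.06 to 0.07 on interimplantation arrays, while all genes together stayed between −0.01 and 0.01.

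Averaged within arrays, the alpha ring gave 0.42, 0.42 and 0.39 on the implantation arrays relative to its interimplantation mean, and −0.06, 0.07 and −0.01 on the interimplantation arrays. The beta ring gave 0.34, 0.27 and 0.21, the base 0.31, 0.26 and 0.18 and the lid 0.20, 0.19 and 0.24. In each of these 4 particles the lowest implantation array was above the highest interimplantation array. In the assembly factors, at −0.06, 0.00 and 0.03, the groups overlapped. Implantation array 1 held the highest value of 17 members, and interimplantation array 3 the lowest value of 16. The 4 particles shared their direction, but differences between particles were not tested.

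Among the activators and regulators PSME3 alone was called, and the others overlapped between groups. PSME3 encodes the subunit of a nuclear activator that promotes degradation without ubiquitin. It gave 7.15, 6.89 and 6.73 at implantation sites and 5.94, 5.99 and 6.04 at interimplantation sites. It rose 1.91-fold (log2 0.94 ± 0.10 SE, adjusted p = 0.000847), the largest difference of the 40 genes at their brightest probe sets. With probe sets averaged it was at 0.44, still called, but below PSMB7 at 0.64, PSMB3 at 0.62, PSMA3 at 0.54 and PSMA7 at 0.49, among others. At its brightest probe set the interimplantation arrays were nearly alike while the implantation arrays spread more.

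PSME1 encodes a subunit of the related interferon-inducible activator. It read 7.98, 7.96 and 7.95 against 7.96, 7.98 and 8.09, so the groups overlapped (log2 −0.05, 95% interval −0.21 to 0.12). Within arrays PSME3 minus PSME1 was larger by 0.98 at implantation sites, without overlap (exact permutation p = 0.1, the smallest possible; adjusted over the 4 pairs 0.133). PSME4, a large single-chain nuclear activator, read 4.12, 4.20 and 4.13 against 4.20, 4.14 and 4.20 (log2 −0.03, 95% interval −0.19 to 0.13). PSMF1, described as an inhibitor of the core particle, read 4.99, 5.22 and 4.80 against 5.05, 5.63 and 5.18. It had the lowest difference of all members at their brightest probe sets (log2 −0.29 ± 0.14 SE, adjusted p = 0.507), with overlapping groups. Its dimmer probe set was at −0.004.

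**Figure D4:**
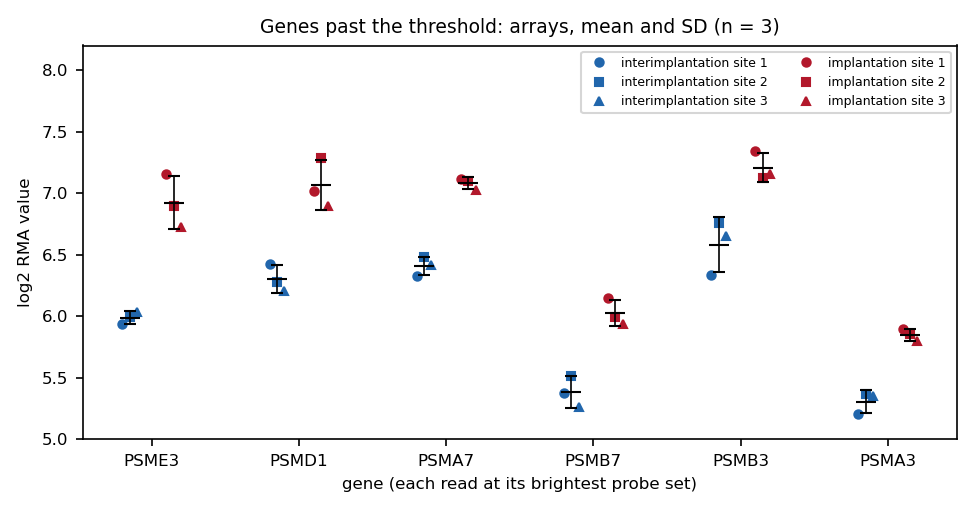
Log2 RMA value (vertical axis) of the 6 called genes on each array, blue for interimplantation and red for implantation sites, with mean and SD over 3 arrays per group. In each gene the lowest red point lies above the highest blue point; PSMB3 has the widest interimplantation spread, from 6.33 to 6.76.

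Assembly factors had 0 of 6 genes called in limma's test and 0 with an unadjusted p under 0.05, and all 6 overlapped between groups. PSMG2, which with PSMG1 helps to build the alpha ring, had the highest difference of the group, with 3.58, 3.50 and 3.57 against 3.36, 3.54 and 3.52 (log2 0.08). PSMG1 was at 0.07. POMP, the chaperone of beta ring assembly, had the lowest, with 4.57, 4.31 and 4.53 against 4.53, 4.64 and 4.52 (log2 −0.09, 95% interval −0.28 to 0.10). PSMD5, PSMD9 and PSMD10, chaperones of the base, were at −0.02, −0.03 and −0.08. Of the 6 genes, 4 were dim, under the median probe set level, where 10 of the 40 members lay. Of these dim members 0 were called (3 had an unadjusted p under 0.05), against 6 of the 30 brighter ones, and among all genes 0.299% of dim and 1.09% of brighter ones were called higher.

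Several probe sets read the same gene in 16 members, and they gave differences of unequal size. In 10 of the 16 genes all probe sets had the same sign, above 0 in 9 and below 0 in PSMF1. Some of these lay near 0, as the dimmer probe sets of PSMF1 (−0.004) and PSMA2 (0.008). Of all 63 probe sets, 8 were called higher and 0 lower (12.7% higher), against 0.702% of all probe sets, and 48 were above 0. The 8 were the 6 described above, a further one for PSME3 and one for PSMA1. PSME3 had the widest range: 0.94 and 0.61 (adjusted p = 0.0108 over probe sets), then 0.29 (0.323) and −0.07 (0.856). Its dimmest probe set, with 4.37, 4.25 and 4.37 against 4.54, 4.39 and 4.25, thus showed no rise.

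PSMA1 had 3 probe sets close to each other, at 0.34, 0.34 and 0.44, of which the last was called (adjusted p = 0.0186). When its probe sets were averaged, the gene itself was called (log2 0.38, adjusted p = 0.025). PSMD1 gave 0.76 and 0.18, PSMA7 0.67 and 0.32, PSMD11 0.62 and 0.18, and PSMA2 0.42 and 0.01, with the smaller value at the dimmer probe set each time. In the beta ring it was the other way round: the dimmer probe sets of PSMB2 and PSMB4 gave 0.38 and 0.39 (adjusted p = 0.163 and 0.295), and PSMB1 gave −0.09, 0.10 and 0.20. When each gene's probe sets were averaged, all 7 beta ring genes were above 0, and 2 were called.

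**Figure D5:**
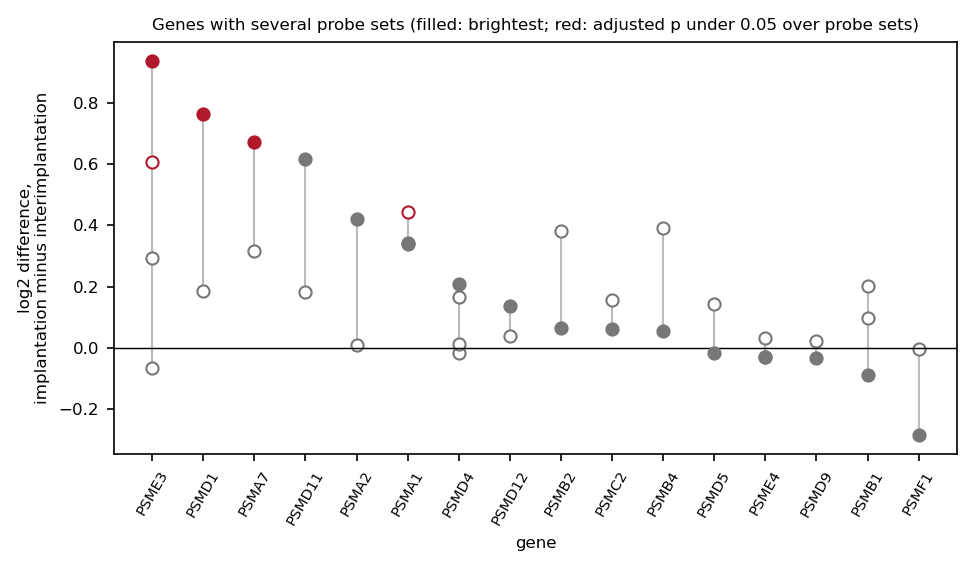
Log2 difference (vertical axis) at every probe set of the 16 proteasome genes that have several; filled points are the brightest probe set, red points have an adjusted p under 0.05 over all probe sets. Probe sets of PSME3 span −0.07 to 0.94, and those of PSMA1 0.34 to 0.44.

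Array design bears on these calls, since PSMA7 and PSME3 were read at probe sets marked for probes shared with other transcripts (suffix x) and PSMD1 at one marked for several transcripts (suffix s). Without all probe sets that carry a suffix, 27 members were left and 3 were called, PSMA3, PSMB7 and PSMB3, against 0.443% of all genes called higher. In that reading PSME3, PSMA7, PSMD1 and also PSMA1 had no probe set. Member probe sets with suffix x had a median difference of 0.34, with 7 of 7 above 0 and 3 called. Those with suffix s had 0.13, 19 of 26 and 2, and plain ones 0.09, 22 of 30 and 3. PSMB3 was the called gene that leaned most on single arrays, while PSMA3, PSMA7, PSMB7, PSMD1 and PSME3 stayed called whichever array was left out.

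Partners of the proteasome outside these families mostly lay above 0. Of 16 measured genes that bind the proteasome, feed it or make ubiquitin, 0 were called in limma's test. Differences were above 0 in 11 (68.8%), against 72.5% of the proteasome genes and 47.6% of all genes, and below 0 in 5. An unadjusted p under 0.05 was reached by 3, all higher (18.8%, against 5.68% of all genes), and the median was 0.13. RAD23B, which shuttles ubiquitinated proteins to the proteasome, read 3.55, 3.73 and 3.93 against 3.32, 3.34 and 3.32 (log2 0.41, adjusted p = 0.0666). UBA1, the ubiquitin-activating enzyme, was at 0.36 (adjusted p = 0.19) and VCP at 0.35 (adjusted p = 0.36), all 3 without overlap. Subunits outside the naming rule were ADRM1, a ubiquitin receptor of the base, at 0.12, and SEM1, a small lid subunit, at 0.14, both overlapping.

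Of 13 measured genes that act on proteasome transcription, 0 were called in limma's test, and an unadjusted p under 0.05 was reached by 1 upward and 1 downward. Among all 11963 genes, 680 reached that level upward and 624 downward. NFE2L1, the transcription factor that raises proteasome genes when the proteasome is impaired, was at −0.18 (adjusted p = 0.532). KEAP1, which holds NFE2L2 in check, was at 0.26 (adjusted p = 0.141) and NFE2L2 itself at −0.22 (adjusted p = 0.349). The 22 measured genes of the interferon response and antigen processing had 0 called in limma's test, and an unadjusted p under 0.05 was reached by 4 upward and 2 downward. Their median was −0.01. TAP1 and TAP2, which form the peptide transporter fed by the immunoproteasome, were at −0.33 and 0.25 (adjusted p = 0.226 and 0.304).

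Markers of division and of some cell types moved between the same arrays. Among all 11963 genes, 93 were called higher and 55 lower, and 680 and 624 had an unadjusted p under 0.05 in limma's test. Groups did not overlap in 8.36% of all genes higher and in 8.09% lower. Of 27 proliferation genes 3 rose, CKS2 (a subunit of cyclin-dependent kinases, log2 1.35), CCNA2 (cyclin A, 0.80) and PCNA (the DNA polymerase clamp, 0.54), and 0 fell. PCNA was dim, at 2.78 against 2.24, below the lower quartile of 3.10, and CCNA2, at 4.18, was just under the median level of 4.19. In that list 14 of 27 had an unadjusted p under 0.05, all higher (51.9%), 14 did not overlap (51.9%), and the median was 0.19. Each was above the 45%, 42.5% and 0.13 of the proteasome genes, while the called share, 11.1%, was under their 15%. Differences were below 0 in 7 of the 27, with TOP2A lowest at −0.15. The gaps between these lists were not tested. The mean level over that list was 4.84 to 4.89 on implantation and 4.60 to 4.67 on interimplantation arrays. Smooth muscle genes had 3 of 11 that fell and a mean level of 5.17 to 5.20 against 5.31 to 5.42. Yet 4 of the 11 were above 0, the median was −0.02, and MYH11 and DES were at 0.00 and −0.02. Groups did not overlap in 4 lower members and in 1 higher member, ACTA2 (0.15), or 9.09% higher against 8.36% of all genes. Epithelial genes had 0 of 12 called in limma's test, with 3 lower at an unadjusted p under 0.05, and a mean level of 3.95 to 4.03 against 4.08 to 4.14. Of the 12, 2 were above 0 and 10 below (16.7% above, against 47.6% of all genes). Among leukocyte genes, which bear on the immunoproteasome, 1 of 16 fell, the myeloid factor SPI1, which was dim at 3.59 against 4.09. The mean level over the list was 4.26 to 4.29 against 4.31 to 4.32, although 10 of the 16 were above 0 and the median was 0.02. Groups did not overlap in 3 lower and 2 higher members (12.5% higher, against 8.36% of all genes). PTPRC, carried by all leukocytes, was at −0.05.

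Endothelial genes had 0 of 9 called in limma's test and 0 at an unadjusted p under 0.05, at 4.22 to 4.23 against 4.29 to 4.33. Of the 9, 1 was above 0 and 8 below (11.1% above, against 47.6% of all genes). In the stroma, 1 of 8 fell, PDGFRA (a growth factor receptor, log2 −0.66), while 4 were above 0. An unadjusted p under 0.05 was reached by 2 upward, COL3A1 (0.26) and HAND2 (0.18), and by 2 downward, PDGFRA and DCN (−0.25). The list lay at 6.56 to 6.71 against 6.67 to 6.82. Trophoblast and embryo genes had 0 of 9 called in limma's test and 0 at an unadjusted p under 0.05, and their levels overlapped, at 4.85 to 4.87 against 4.85 to 4.90. Blood genes had 0 of 4 called in limma's test, with 1 lower at an unadjusted p under 0.05, at 5.98 to 6.10 against 6.09 to 6.20. Of the 8 marker calls, CKS2, CCNA2 and PDGFRA held whichever array was left out. PCNA was lost without any 1 of 2 arrays, and SPI1 and the smooth muscle genes ACTG2, TAGLN and MYLK without any 1 of 5 (adjusted p up to 0.188). On this array no marker is at 0, since every probe set has a background level. The part of these cell types and of dividing cells in the proteasome values was not tested.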

How the data were processed

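Per the submitters' processing notes, the authors used Partek 6.6 and RMA, which corrects background, equalises the arrays and summarises the probes. The deposited log2 values number 1 for each probe set on each array; the sources used here give neither settings nor log base, and the range of 1.65 to 12.1 was read as log2. Of 22283 probe sets, 68 controls were left out. Platform annotation gave 1 gene to 19065 of the rest, several to 1043 and none to 2107; 5 probe sets that name a proteasome gene beside another gene (PSMA2, PSMA6 or PSME2) were left out. Of the 40 members, 39 have a hamster gene of that symbol in the RefSeq table of the assembly BCM_Maur_2.0, used for names only. All genes were fitted with limma 3.58.1 in R 4.3.3 (lmFit, eBayes, 2 groups, two-sided, no covariate) with Benjamini-Hochberg adjustment over all genes or all probe sets; the fit was tested on simulated data. The number of arrays limits the precision. Every member gene is accounted for, but the particles were not read in full. PSMA6, PSMC5, PSMD7, PSMD13, PSME2, PSMG3 and PSMG4 had no probe set annotated to them alone. All values are given for called genes, the highest and lowest of each particle, immunoproteasome subunits and activators; some others were added after their values were seen. Members and lists were chosen with earlier results of these data known. Alternatives were the replicate number as a block, single arrays left out, a brightness filter, 3 normalizations, array weights, a trended robust prior, plain probe sets and averaged probe sets. Other array platforms of the study, scan dates and sequences were not used here.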

Additional observations from a re-analysis of the deposited data

How the results depend on the processing

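The count of called proteasome genes (6 higher, 0 lower) stayed at 5 to 8 higher and 0 lower when single arrays were left out, that of probe sets (8) at 6 to 10 and 0, and the median difference (0.13) at 0.12 to 0.17. Without probe sets of shared probes, 3 genes and 3 probe sets were called and the median was 0.093, over the 27 genes left; with the brightness filter it was 0.20, over the 30 brighter genes. The actin control difference (−0.38) ran from −0.46 to −0.25 without single arrays. The replicate number as a block called the same 6 genes; same-numbered arrays correlated at 0.054, −0.0025 and 0.070 in their deviations from the group means, so the numbers were not taken to pair the arrays. Under the 15 alternatives run, 0 members were called lower. Of 577 gene values, 17 changed sign, in 8 members near 0 that were not called in any of them; the cause was not tested. Without single arrays PSMD5 ran from −0.039 to 0.027, PSMD9 from −0.12 to 0.083, PSMB9 from −0.083 to 0.083, PSMB10 from −0.14 to 0.091, PSMD8 from −0.061 to 0.22 and PSMD14 from −0.25 to 0.12. With array weights PSMC2 was at −0.0011 and PSMD8 at −0.00049, and averaging a gene's probe sets put PSMD5 at 0.063 and PSMB1 at 0.069. PSMA2 was called with the brightness filter (adjusted p = 0.0407) and with array weights (0.0427). Low signal over background limits what the 10 dim members can show.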
